A study of Saccharomyces cerevisiae with 6 samples.

Results

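Pre-mRNA splicing genes of the budding yeast Saccharomyces cerevisiae were followed through a heat shock in cells that lacked the histone deacetylase gene RPD3 and in wild-type cells. The genes were chosen by symbol. Those named PRP, LSM, SMD, MUD, SLU or CUS with a number were taken, together with SMB1, SME1, SNP1, BRR2, SNU66, SNU71, MSL1, LEA1 and ISY1. The rule found 49 of the 4073 genes named on the arrays, and each had 7 spots. In 1 case the label did not hold: the gene listed as PRP12 is now called YME2 and encodes a protein of the inner mitochondrial membrane, so it is described apart. LSM12, which the rule would also take, has no named spot and was not analysed here.

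The tested strain carried the rpd3Δ deletion in the BY4741 background, and the wild type was BY4741 itself, a haploid laboratory strain. Cultures of 200 ml in rich medium (YPD) at mid-log phase were either exposed to 39 °C for 20 min or kept at 25 °C, and each of the 6 arrays set the heated RNA of a strain against its own control RNA. There were 3 arrays of the rpd3 deletion and 3 of wild type, which the labels number as biological replicates 1 to 3 and whose growth notes speak of independent cultures. Values are on the log2 scale and probably run as heated over control, because the design text gives the response relative to the control; a value of 1 is then a 2-fold higher level after heat. HSP12, HSP26, HSP104 and SSA4, which are textbook heat-induced genes, were above 0 on all 6 arrays, with 3.65 as their lowest ratio. The heated sample was labelled with Cy3 and the control with Cy5 throughout, so a dye effect cannot be told apart from heat within a strain.

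Splicing removes introns from messenger RNA precursors and is carried out by the spliceosome, which forms anew on each intron. The U1 particle first reads the 5′ splice site and the U2 particle the branch site. A preassembled particle of U4, U6 and U5 then joins, and the Prp19 complex stabilises the active form. RNA helicases, mostly of the DEAD and DEAH families, drive the rearrangements up to release of the messenger RNA and disassembly. In yeast few genes have introns, but genes of ribosomal proteins are common among them, so a large share of the transcripts that are spliced encode ribosomal proteins.

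Most splicing genes changed little with heat in either strain. The median size of the log2 heat ratio, regardless of sign, was 0.23 over the 49 genes in the rpd3 deletion and 0.24 in wild type, against 0.39 and 0.42 over all genes. Heat ratios of at least 2-fold in either direction were seen for 4 of the 49 genes in the rpd3 deletion and for 1 in wild type, while 16.0% and 20.6% of all genes reached this size. The 4 were PRP46, PRP3 and SLU7, which were high, and LSM6, which was low. The 1 in wild type was PRP43, which was low.

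A gene was called when its adjusted p was under 0.05 in limma, fitted over all 4073 genes with Benjamini-Hochberg adjustment, and "rose" and "fell" below refer to such calls. In the rpd3 deletion 14 of the 49 genes rose and 10 fell, where 33.7% of all genes rose and 31.9% fell. In wild type 6 rose and 20 fell, where 29.7% of all genes rose and 36.3% fell. The median log2 ratio of the 49 genes was 0.05, 0.05 and 0.13 on the rpd3 deletion arrays 1 to 3, against -0.11, -0.20 and -0.05 on the wild-type arrays. The 3 medians of the rpd3 deletion lay above the 3 of wild type, and all were close to 0. Medians over all named genes were separated in the same order. They were -0.003, -0.008 and 0.022 on the rpd3 deletion arrays, against -0.040, -0.074 and -0.027 on the wild-type arrays. Medians over all spots, which include those without a gene name, were separated in the opposite order. They were -0.029, -0.014 and -0.028 on the rpd3 deletion arrays, against 0.084, 0.040 and 0.030 on the wild-type arrays. Without wild-type array 1 the count of risers in wild type was 1, and without array 2 it was 3 and the count of genes that fell was 13. The risers in wild type also numbered 3 without wild-type array 3 or without deletion array 1. The risers in the rpd3 deletion numbered 8 without deletion array 1. How many of all genes were called without an array was not counted, so these drops cannot be read as particular to the splicing genes.

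Across the strains, 7 genes fell in both: the Lsm genes LSM1, LSM2, LSM4 and LSM6, the Sm genes SMD1 and SMD3, and MUD1 of the U1 particle. SNU71, PRP5, PRP46 and the mitochondrial gene YME2 rose in both. CUS2, PRP3, PRP28 and SLU7 rose in the rpd3 deletion and fell in wild type, and 0 genes did the opposite. Each of these falls in wild type missed the threshold when some single array was left out. How many of all genes showed each of these joint patterns was not counted. A further 9 genes fell in wild type and were not called in the rpd3 deletion, and 12 genes were called neither in a strain nor for the difference between the strains. The shares of all genes with these patterns were not counted either.

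**Figure D1:**
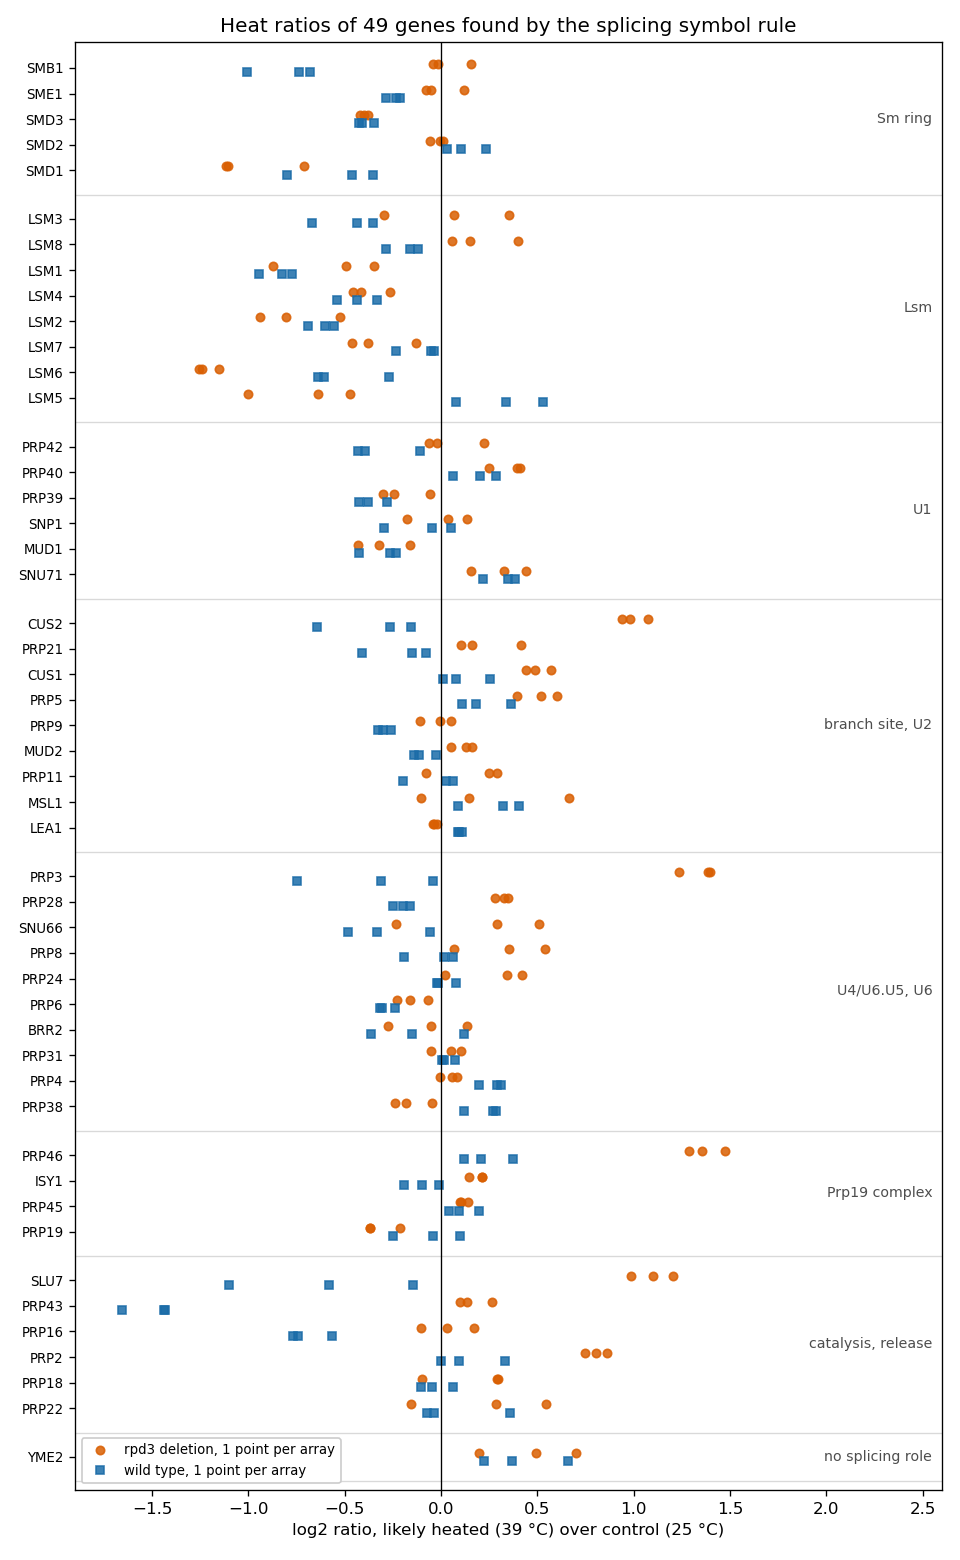
Log2 heat ratio (x axis) of each of the 49 genes on every array, with 3 points for the rpd3 deletion above 3 points for wild type, grouped by role and ordered by strain difference. The rpd3 deletion points lie clear of the wild-type points by wide gaps for SMB1, CUS2, PRP3, PRP28, PRP46, SLU7, PRP43, PRP16 and PRP2 on the high side and for LSM5 and LSM6 on the low side.

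The heat ratio in the rpd3 deletion less that in wild type, the strain difference, asks whether the deletion altered the heat response. Since each ratio is relative to control cells of the same strain, it does not separate a change of the unheated level from one of the heated level. Of the 49 genes, 14 had a higher ratio in the rpd3 deletion and 3 a lower one, where 24.8% of all genes were higher and 21.0% lower. The called share of the 49 was 34.7%, against 45.8% of all genes. The median strain difference was 0.19 over the 49 genes and 0.02 over all genes. Without deletion array 1, or without wild-type array 2, 9 of the 49 were higher, and the share of all genes was not counted for these fits. All 3 rpd3 deletion arrays lay above all 3 wild-type arrays for 21 of the 49 genes, and below them for 6, where 31.1% of all genes lay above and 27.3% below. The arrays of the strains overlapped for the other 22 genes. The 17 called genes were all among those that did not overlap. Call and overlap use the same array values, so this is no separate support for the calls.

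A strain difference of at least 2-fold was called for 6 of the genes, 5 of them higher in the rpd3 deletion. Such a size was thus reached by 12.2% of the 49 genes, near the 11.7% of all genes that did so. They belong to different stages of splicing: PRP3 to the U4/U6 particle, CUS2 to the U2 particle, PRP46 to the Prp19 complex, SLU7 to the second catalytic step and PRP43 to disassembly. The only one lower in the rpd3 deletion was LSM5, of the ring on U6.

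**Figure D2:**
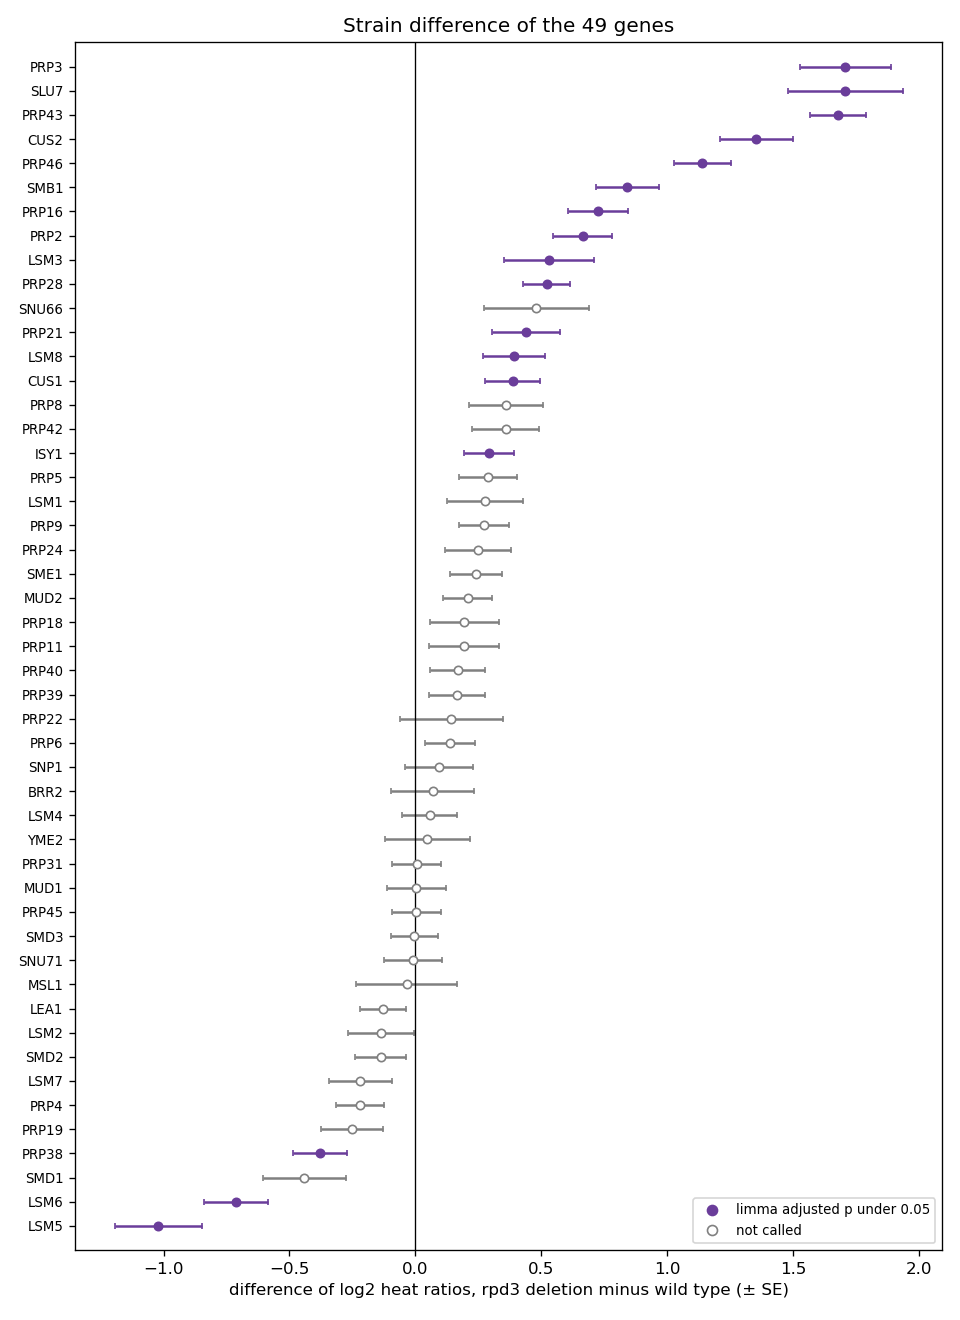
Strain difference of the log2 heat ratio (x axis, rpd3 deletion minus wild type, bars are standard errors of the limma fit, 3 arrays per strain) for the 49 genes in order of size, with filled points for called genes. SLU7 and PRP3 lead at 1.71, PRP43 follows at 1.68, and LSM5 is lowest at -1.02.

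Among the enzymes and factors of the catalytic steps and of disassembly, SLU7 and PRP43 had differences above 3-fold. SLU7 encodes a factor of the second step that helps to select the 3′ splice site. Its log2 ratio was 0.99, 1.10 and 1.20 in the rpd3 deletion, against -0.58, -1.10 and -0.15 in wild type. All deletion arrays were high and all wild-type arrays were below 0, with a wide spread between the wild-type arrays. The strain difference was 1.71 ± 0.23 (SE, n = 3 each; limma adjusted p = 0.00162), a 3.26-fold higher ratio in the rpd3 deletion. Its fall in wild type missed the threshold without wild-type array 1 (adjusted p = 0.0557) or 2 (0.0545), and over all alternatives that p ranged from 0.00272 to 0.0557.

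PRP43 encodes the DEAH-box helicase that takes the spent spliceosome apart and that also works in ribosome assembly. Its log2 ratio was 0.14, 0.10 and 0.26 in the rpd3 deletion, against -1.43, -1.44 and -1.66 in wild type. The wild-type fall of 1.51 ± 0.13 on the log2 scale (SD, n = 3; limma adjusted p = 1.34e-05) was the largest among the 49 genes, a 2.85-fold lower level. The rpd3 deletion arrays stayed close to 0 and were not called (0.17 ± 0.08, SD; adjusted p = 0.0985). That gave a strain difference of 1.68 ± 0.11 (SE; adjusted p = 0.000309), or 3.20-fold.

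PRP16 and PRP2 encode further DEAH-box helicases, of which Prp2 acts just before the first step and Prp16 before the second. The PRP16 log2 ratio was 0.03, -0.11 and 0.17 in the rpd3 deletion, against -0.57, -0.74 and -0.77 in wild type. Like PRP43, it fell in wild type and lay around 0 in the rpd3 deletion, with a strain difference of 0.72 ± 0.12 (SE; adjusted p = 0.00323). PRP2 was also higher in the rpd3 deletion, but its call lay in the other strain. Its log2 ratio was 0.80, 0.75 and 0.86 in the rpd3 deletion, against 0.09, -0.002 and 0.33 in wild type. It rose in the rpd3 deletion and was not called in wild type (adjusted p = 0.172), and the strain difference was 0.66 ± 0.12 (SE; adjusted p = 0.00442).

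PRP22, the helicase that releases the finished messenger RNA, and PRP18, a partner of Slu7 in the second step, were called in neither strain. The PRP22 log2 ratio was 0.29, -0.15 and 0.55 in the rpd3 deletion, against -0.07, -0.04 and 0.36 in wild type. That of PRP18 was 0.30, -0.10 and 0.29 in the rpd3 deletion, against 0.06, -0.11 and -0.05 in wild type. In both genes the arrays of the strains overlapped, and the array-to-array spread was as large as the strain difference (0.14 ± 0.20 for PRP22 and 0.19 ± 0.14 for PRP18, SE). Deletion array 2 was the lowest for both, and without it the mean in the rpd3 deletion was 0.42 for PRP22 (adjusted p = 0.0215; 0.0215 to 0.716 over its alternatives) and 0.29 for PRP18 (0.0216; 0.0216 to 0.568). The strain difference of PRP18 was then 0.32 (0.0449; 0.0371 to 0.579). Of the 6 genes of this stage, 4 had a called strain difference, all higher in the rpd3 deletion. Over all genes 45.8% had a called strain difference and 24.8% were higher.

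In the particle of U4, U6 and U5, 1 gene stood apart from the other subunits. PRP3 encodes a protein of the U4/U6 part. The arrays read 1.23, 1.39 and 1.40 in the rpd3 deletion, against -0.31, -0.75 and -0.04 in wild type. It rose 2.53-fold in the rpd3 deletion with little spread, while its fall in wild type (-0.37 ± 0.36, SD; adjusted p = 0.0353) varied between arrays and missed the threshold under 4 of 13 alternatives, among them the fits without wild-type array 2 (-0.18, adjusted p = 0.20), without wild-type array 1 (0.10) and without deletion array 1 (0.0574). Over all 13 that p ranged from 0.0104 to 0.20. The strain difference was 1.71 ± 0.18 (SE; adjusted p = 0.000804).

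PRP28, the DEAD-box helicase that frees the 5′ splice site from U1 so that U6 can take it, moved in the same sense but less. Ratios were 0.28, 0.35 and 0.33 in the rpd3 deletion, against -0.16, -0.20 and -0.25 in wild type. The strain difference was 0.52 ± 0.09 (SE; adjusted p = 0.00443), and the 2 groups of arrays were tight and far apart relative to their spread. The fall in wild type was small (adjusted p = 0.0274) and missed the threshold under 6 of 13 alternatives, with an adjusted p of 0.00392 to 0.108. Leaving out any wild-type array, or deletion array 1, was among them.

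PRP38, needed for activation of the assembled spliceosome, was lower in the rpd3 deletion. The ratio was -0.05, -0.18 and -0.24 in the rpd3 deletion, against 0.12, 0.28 and 0.27 in wild type. The strain difference of -0.38 ± 0.11 (SE; adjusted p = 0.024) was called under 6 of 12 alternatives (adjusted p of 0.0131 to 0.401). It was -0.26 with the median of the spots (adjusted p = 0.0619), and it also missed the threshold without deletion array 1 or 3 or wild-type array 2 or 3. Its rise in wild type (adjusted p = 0.0322) was lost without deletion array 1 or wild-type array 2 or 3 (adjusted p of 0.017 to 0.477). SMD1 lies next to PRP38 on the chromosome in the order of the RefSeq gene table, and its strain difference had the same sign without a call (-0.44 ± 0.17, SE; adjusted p = 0.063). It was called under 4 of 13 alternatives (0.0137 to 0.32): with quantile normalization (0.0278), with the replicate number as a block (0.0206), and without deletion array 2 (0.0137) or wild-type array 3 (0.0325).

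The genes of the large subunits at the core of the machine, PRP8 and BRR2, were not called for the strain difference with all arrays. PRP8, which encodes the protein that surrounds the catalytic RNA, had a log2 ratio of 0.35, 0.06 and 0.54 in the rpd3 deletion, against 0.02, -0.19 and 0.06 in wild type. It rose in the rpd3 deletion (adjusted p = 0.0287; 0.00553 to 0.138 over its alternatives, not called without deletion array 1 or 3 or wild-type array 1) with a strain difference of 0.36 ± 0.15 (SE; adjusted p = 0.0821). That difference was called under 3 of 13 alternatives (0.0155 to 0.23), among them the replicate block (0.0296) and the fit without deletion array 2 (0.49; 0.0155). BRR2, the helicase that unwinds U4 from U6, had -0.05, -0.28 and 0.14 in the rpd3 deletion, against -0.37, -0.15 and 0.12 in wild type. It lay on both sides of 0 in each strain. PRP31, the gene of a U4 protein, was close to 0 in both, at 0.03 ± 0.08 in the rpd3 deletion and 0.03 ± 0.04 in wild type (SD, n = 3 each).

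For the remaining subunits, PRP24, which anneals U6 to U4, rose in the rpd3 deletion (0.26 ± 0.21, SD; adjusted p = 0.0377), a call that ended without deletion array 1 or 3 or any wild-type array (0.00577 to 0.195 over its alternatives). PRP4 rose in wild type (0.27 ± 0.06; adjusted p = 0.0096; 0.0528 without wild-type array 1, 0.00386 to 0.212 over its alternatives), and PRP6 fell there (-0.29 ± 0.04; adjusted p = 0.00726). The strain difference of PRP24 was called without deletion array 2 (0.37; adjusted p = 0.0261; 0.0261 to 0.364 over its alternatives). SNU66 had the widest spread of the group in the rpd3 deletion, at 0.29, -0.23 and 0.51, against -0.34, -0.49 and -0.06 in wild type. Its strain difference of 0.48 ± 0.21 (SE) was not called (adjusted p = 0.0942). It was 0.69 without deletion array 2 (adjusted p = 0.00693; 0.00693 to 0.256 over its alternatives) and was also called with the replicate block (0.0168). Without deletion array 2 its mean in the rpd3 deletion was 0.40 (0.0198; 0.0198 to 0.881), against 0.19 with all arrays.

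**Figure D3:**
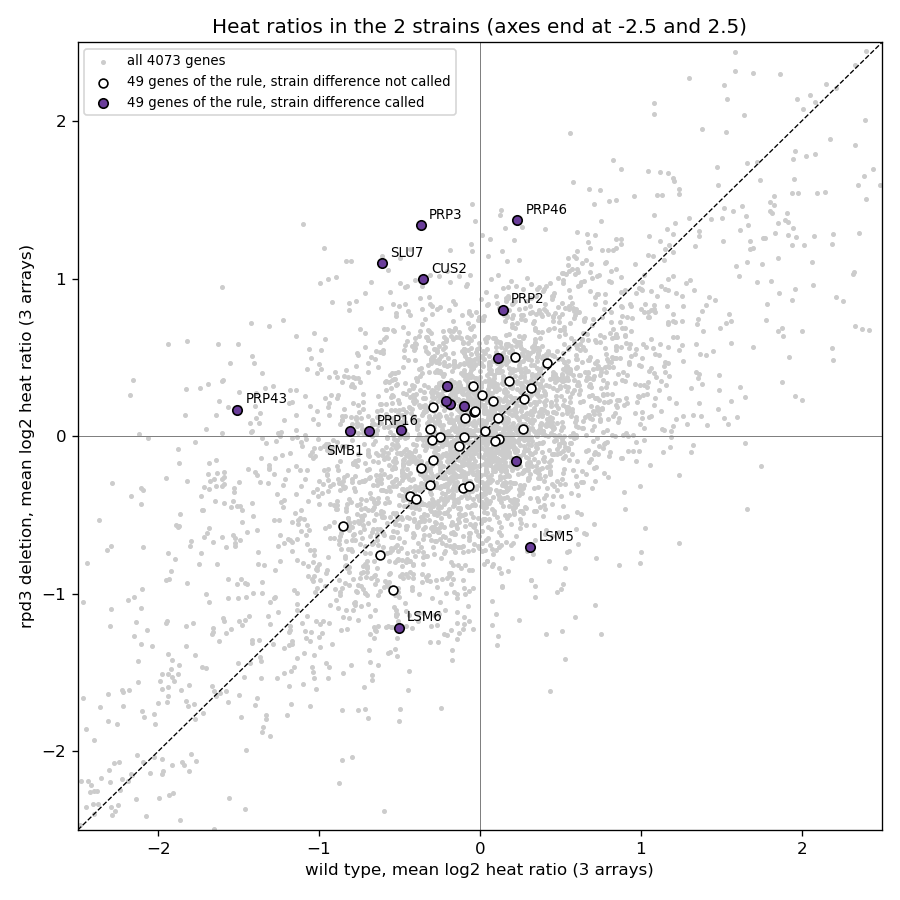
Mean log2 heat ratio in the rpd3 deletion (y axis) against that in wild type (x axis) for the 49 genes and, in grey, all 4073 genes, 3 arrays per strain; the dashed line marks equal ratios. The 49 genes lie near the centre of the cloud, PRP43 stands at -1.51 in wild type and 0.17 in the rpd3 deletion, and PRP3 and SLU7 are above 0 in the rpd3 deletion and below 0 in wild type.

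Of 9 genes that act at the branch site, most of them in the U2 particle, 3 had a higher ratio in the rpd3 deletion and 0 a lower one. Over all genes 24.8% were higher and 21.0% lower. CUS2 encodes a protein that helps U2 RNA to fold and that makes the binding of U2 depend on the helicase Prp5. It had log2 ratios of 0.98, 1.07 and 0.94 in the rpd3 deletion, against -0.16, -0.64 and -0.27 in wild type. It rose 2.00-fold in the rpd3 deletion, and all its wild-type arrays were below 0. Its fall in wild type missed the threshold without wild-type array 2 (-0.21, adjusted p = 0.09; 0.00257 to 0.09 over 13 alternatives). Its strain difference was 1.35 ± 0.14 (SE; adjusted p = 0.000809).

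CUS1 and PRP21 encode subunits of the SF3b and SF3a parts of U2. The CUS1 log2 ratio was 0.49, 0.57 and 0.44 in the rpd3 deletion, against 0.25, 0.01 and 0.08 in wild type. That of PRP21 was 0.10, 0.16 and 0.41 in the rpd3 deletion, against -0.15, -0.41 and -0.08 in wild type. Both were higher in the rpd3 deletion, by 0.39 ± 0.11 (SE; adjusted p = 0.0243) and 0.44 ± 0.14 (adjusted p = 0.0338). These calls were lost under 3 of 13 alternatives for CUS1 (adjusted p of 0.00284 to 0.0882) and 4 of 13 for PRP21 (0.00775 to 0.112), each of which left out an array. For CUS1 these were deletion array 1 and wild-type arrays 2 and 3, and for PRP21 deletion arrays 1 and 3 and wild-type arrays 1 and 2.

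PRP5, whose DEAD-box helicase helps U2 onto the branch site, rose in both strains (0.50 ± 0.11 in the rpd3 deletion and 0.22 ± 0.13 in wild type, SD). The call in wild type (adjusted p = 0.0469) was lost under 8 of 12 alternatives, among them every fit without 1 array except deletion array 2 (0.0188 to 0.533). PRP9 and PRP11, the other SF3a genes, were not called for the strain difference (0.27 ± 0.10, adjusted p = 0.0544, and 0.19 ± 0.14, adjusted p = 0.279; SE). PRP9 fell in wild type (-0.30 ± 0.03, SD; adjusted p = 0.00649). MUD2, whose protein bridges U1 and the branch site, and LEA1 and MSL1, which bind U2 RNA itself, were called in no comparison with all arrays. LEA1 had the tightest values of the group, at -0.03 ± 0.01 in the rpd3 deletion and 0.10 ± 0.01 in wild type (SD), and MSL1 had the widest in the rpd3 deletion, at 0.15, 0.66 and -0.10. MSL1 was called higher there without deletion array 3 (0.41; adjusted p = 0.0343; 0.0343 to 0.876 over its alternatives). In wild type it was called (0.27) when the strains were fitted apart (0.0285) or without deletion array 2 (0.027; 0.027 to 0.434).

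The 6 U1 genes of the symbol rule showed 0 strain differences called by limma, where 45.8% of all genes had one. Of the 6, PRP42 alone had an unadjusted p under 0.05 (0.0304; difference 0.36 ± 0.13, SE; adjusted p = 0.0625). PRP42 was called under 3 of 13 alternatives (0.018 to 0.187): with the replicate block (0.0243), without wild-type array 3 (0.0342) and with centring on deleted genes (0.018). SNU71 rose in both strains to the same extent (0.31 ± 0.14 in the rpd3 deletion and 0.32 ± 0.09 in wild type, SD), and MUD1 fell in both (-0.31 ± 0.14 and -0.31 ± 0.10). Their strain differences were -0.01 ± 0.12 and 0.004 ± 0.12 (SE). In the rpd3 deletion both calls were lost without deletion array 1 or 2 (adjusted p of up to 0.0768 for SNU71 and 0.0787 for MUD1). In wild type SNU71 lost its call without wild-type array 1 or 2 (up to 0.103 over its alternatives) and MUD1 without array 2 (0.0755). PRP40, whose protein reaches from U1 toward the branch site, rose in the rpd3 deletion (0.35 ± 0.09; adjusted p = 0.00521; 0.052 without deletion array 1, 0.00298 to 0.052 over its alternatives) and had 0.18 ± 0.11 in wild type (adjusted p = 0.069). PRP39 and PRP42, whose proteins pair with each other in the particle, had ratios of -0.20 ± 0.13 and 0.05 ± 0.15 in the rpd3 deletion and fell in wild type (-0.36 ± 0.07 and -0.31 ± 0.18). PRP39 was called lower in the rpd3 deletion under 4 of 13 alternatives, among them the fit without deletion array 3 (-0.27; adjusted p = 0.0322; 0.025 to 0.307 in all). The fall of PRP42 was lost without wild-type array 1 or 2 (0.00835 to 0.126 over its alternatives). SNP1, whose protein binds U1 RNA itself, was called in neither strain.

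In the Prp19 complex, PRP46 stood out. It encodes a repeat protein of the activated spliceosome. The ratios were 1.47, 1.29 and 1.35 in the rpd3 deletion, against 0.21, 0.12 and 0.37 in wild type. The mean in the rpd3 deletion, 1.37 ± 0.10 (SD, n = 3; adjusted p = 2.11e-05), was the highest heat ratio among the 49 genes, a 2.59-fold rise. The rise in wild type was small (0.23 ± 0.13; adjusted p = 0.0332) and missed the threshold under 5 of 13 alternatives (adjusted p of 0.0136 to 0.428), among them those without deletion array 1 or wild-type array 1 or 3. A strain difference of 1.14 ± 0.11 was called (SE; adjusted p = 0.000713).

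PRP19, the ubiquitin ligase that names the complex, fell in the rpd3 deletion (-0.32 ± 0.09, SD; adjusted p = 0.0141) and had -0.07 ± 0.17 in wild type. That fall was lost without deletion array 1 or 3 (0.00913 to 0.0936 over its alternatives), and the strain difference was not called (-0.25 ± 0.12, SE; adjusted p = 0.129). PRP45 had nearly the same ratio in both strains, 0.11 ± 0.02 in the rpd3 deletion and 0.11 ± 0.08 in wild type. ISY1, whose protein acts around the first catalytic step, was higher in the rpd3 deletion by 0.29 ± 0.10 (SE; adjusted p = 0.0467), a call lost under 9 of 13 alternatives (adjusted p of 0.00881 to 0.162). The 9 were every fit without 1 array, centring on all genes, quantile normalization and the fit with the replicate number as a block. Its rise in the rpd3 deletion (0.19 ± 0.04, SD; adjusted p = 0.0453) was likewise lost without any 1 array (0.0189 to 0.201).

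The Sm proteins form the ring that sits on U1, U2, U4 and U5 RNA, and the related Lsm proteins form a ring on U6. Genes of both rings fell in several cases, and none of the 13 chosen by the symbol rule rose in either strain by limma. Of all genes, 33.7% rose in the rpd3 deletion and 29.7% in wild type. At an unadjusted limma p under 0.05, 1 of the 13 was above 0, LSM5 in wild type. Of the 5 Sm genes 1 had a higher ratio in the rpd3 deletion, and of the 8 Lsm genes 2 were higher and 2 lower. Over all genes 24.8% were higher and 21.0% lower. SMB1 fell in wild type alone as a call: its log2 ratio was -0.04, 0.15 and -0.01 in the rpd3 deletion, against -0.68, -1.01 and -0.74 in wild type. The strain difference was 0.84 ± 0.13 (SE; adjusted p = 0.00236).

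SMD3 fell by the same amount in both strains, with -0.40 ± 0.02 in the rpd3 deletion and -0.40 ± 0.04 in wild type (SD). SMD1 fell in both, with -1.12, -0.71 and -1.11 in the rpd3 deletion, against -0.47, -0.35 and -0.80 in wild type. SME1 lay at -0.005 ± 0.11 in the rpd3 deletion and fell in wild type (-0.24 ± 0.04; adjusted p = 0.0187), a call lost without any 1 wild-type array (0.00368 to 0.0791 over its alternatives). SMD2 was called in no comparison. The medians of the 5 Sm genes were -0.02 in the rpd3 deletion and -0.40 in wild type, but the median of their strain differences was -0.004. The Sm genes SMX2 and SMX3, outside the symbol rule, had -0.56 and -0.70 in the rpd3 deletion. In wild type they had -0.24 and -0.14, so the medians of the 5 do not stand for the whole ring.

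LSM5 had opposite signs in the strains. The log2 ratio was -0.641, -0.474 and -1.001 in the rpd3 deletion, against 0.339, 0.526 and 0.078 in wild type. It fell in the rpd3 deletion (adjusted p = 0.00174) and just missed the threshold in wild type (adjusted p = 0.0545; 0.0223 to 0.272 over its alternatives). Its strain difference, -1.02 ± 0.17 (SE; adjusted p = 0.00383), was the lowest of the 49 genes.

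LSM6 had the lowest heat ratio of the 49 genes in the rpd3 deletion. It was -1.24, -1.16 and -1.26 there, against -0.64, -0.27 and -0.61 in wild type. It fell in both strains and more in the rpd3 deletion, with a strain difference of -0.71 ± 0.13 (SE; adjusted p = 0.00441). LSM2 (-0.76 ± 0.21 in the rpd3 deletion and -0.62 ± 0.07 in wild type, SD) and LSM4 (-0.38 ± 0.10 and -0.44 ± 0.10) also fell in both, with no called difference.

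LSM8 and LSM3 were higher in the rpd3 deletion, with small margins. Lsm8 is the subunit that marks the ring of U6 in the nucleus. The LSM8 log2 ratio was 0.06, 0.40 and 0.15 in the rpd3 deletion, against -0.16, -0.29 and -0.12 in wild type. That of LSM3 was 0.07, 0.35 and -0.29 in the rpd3 deletion, against -0.36, -0.44 and -0.67 in wild type, with the lowest deletion array close to the highest wild-type array. Their strain differences, 0.39 ± 0.12 (SE; adjusted p = 0.0358) and 0.53 ± 0.18 (adjusted p = 0.0449), were lost under 8 of 12 alternatives for LSM8 (adjusted p of 0.00685 to 0.12) and 7 of 13 for LSM3 (0.00722 to 0.125). Leaving out any 1 array ended the call for LSM8, and for LSM3 any array other than deletion array 3. In wild type the fall of LSM3 missed the threshold when array 3 was left out (adjusted p = 0.065; 0.00165 to 0.065 over its alternatives).

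LSM1 takes the place of LSM8 in the cytoplasmic ring, which acts in decay of messenger RNA and not in splicing. It fell in both strains, with -0.57 ± 0.27 in the rpd3 deletion and -0.85 ± 0.09 in wild type (SD), and its strain difference was not called (0.28 ± 0.15, SE; adjusted p = 0.164) unless deletion array 2 was left out (0.43; 0.0185) or arrays were centred on deleted genes (0.0374; 0.0185 to 0.397 in all). LSM7 fell in the rpd3 deletion when spots were averaged (-0.33 ± 0.17; adjusted p = 0.0134) and not when their median was taken (-0.15; adjusted p = 0.0988) or without deletion array 1 (0.114; 0.006 to 0.114 over its alternatives). YME2, the mitochondrial gene, rose in both strains, by 0.46 ± 0.25 in the rpd3 deletion and 0.42 ± 0.22 in wild type (SD), the highest wild-type ratio of the 49 genes. Its arrays read 0.49, 0.19 and 0.70 in the rpd3 deletion, against 0.37, 0.22 and 0.66 in wild type, and its strain difference was 0.05 ± 0.17 (SE). The calls were lost without deletion array 1 in the rpd3 deletion (0.0618; 0.00302 to 0.0618) and without wild-type array 1 or 3 in wild type (0.00565 to 0.106).

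Single spots decided the average of a few genes. The 7 spots of a gene differed by an SD above 0.3 on at least 1 deletion array for 10 of the 49 genes and on at least 1 wild-type array for 2, against 12.0% and 5.45% of all genes. For PRP11, 1 spot read -2.92 on deletion array 1 and -1.79 on deletion array 3, while the mean of the other 6 was 0.39 and 0.59. For PRP5 the lowest spot read -0.98, -0.67 and -1.76 on deletion arrays 1 to 3, against a mean of 0.87, 0.57 and 0.90 for the others. With the median of the spots, PRP11 had a called strain difference (0.50, adjusted p = 0.0128; 0.0128 to 0.584 over its alternatives) and so had PRP5 (0.45, adjusted p = 0.0295; 0.0155 to 0.251). PRP9 also passed the threshold then (0.29, adjusted p = 0.0377; 0.0096 to 0.141), while LSM8 and PRP38 did not (adjusted p = 0.12 and 0.0619).

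**Figure D4:**
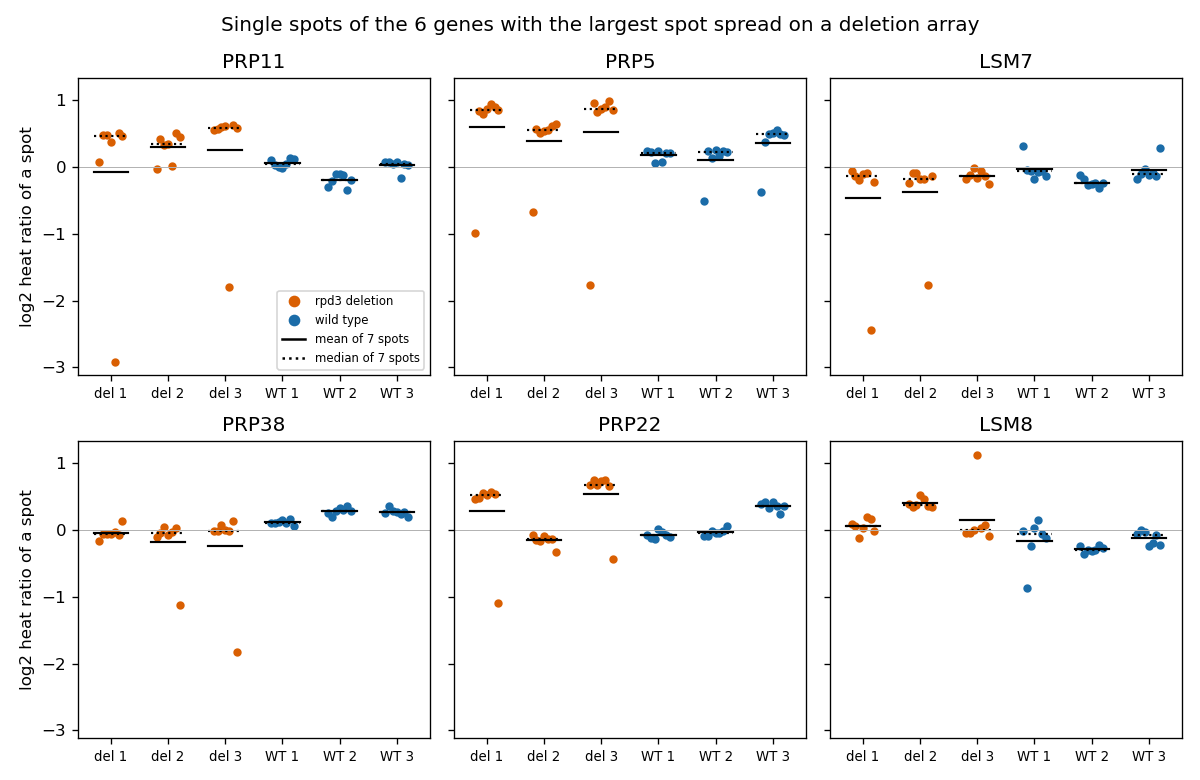
Log2 heat ratio of each of 7 spots (y axis) on the 3 rpd3 deletion arrays (left) and the 3 wild-type arrays (right) of each panel, for the 6 genes with the largest spread between spots on a deletion array; solid lines are means and dotted lines medians. A single low spot pulls the mean of PRP11, PRP5, LSM7, PRP38 and PRP22 below the other spots on deletion arrays, and a single high spot (1.12) raises that of LSM8 on deletion array 3.

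Other genes of the splicing pathway, 47 of them measured and outside the symbol rule, were set beside the 49. In the rpd3 deletion 18 rose and 8 fell, and in wild type 7 rose and 12 fell. Of all genes, 33.7% rose and 31.9% fell in the rpd3 deletion, and 29.7% rose and 36.3% fell in wild type. For the strain difference, 10 of the 47 were higher in the rpd3 deletion and 2 lower, with a median of 0.17. Over all genes 24.8% were higher and 21.0% lower. None of the 47 differed by 2-fold, where 11.7% of all genes did. The highest were SYF2, of the Prp19 complex (0.98 ± 0.13, SE; adjusted p = 0.0016), CWC24 (0.93 ± 0.13), whose protein guards the 5′ splice site before the first step, and CWC22 (0.87 ± 0.11), which helps Prp2 to act. SYF2 had 0.48, 0.67 and 0.37 in the rpd3 deletion, against -0.40, -0.65 and -0.36 in wild type, so the strains lay on opposite sides of 0. The lowest were CBC2, the small subunit of the nuclear cap-binding complex (-0.74 ± 0.11; adjusted p = 0.00249), and 2 that were not called, NAM8 of U1 (-0.66 ± 0.24; adjusted p = 0.059) and SMX3, the Sm F gene (-0.57 ± 0.33; adjusted p = 0.186). NAM8 was called under 4 of 13 alternatives (0.00322 to 0.18), among them the replicate block (0.0117) and the fits without deletion array 2 (-0.92; 0.00322) or wild-type array 3 (0.0463). SMX3 was called with the block (0.0289) and without deletion array 2 (-0.81; 0.048; 0.0289 to 0.484 over its alternatives). Chosen after their values were seen, MSL5, the branch-site binding protein gene (-0.50 ± 0.12; adjusted p = 0.016), was the other lower gene, YHC1 of U1 was higher (0.37 ± 0.10; adjusted p = 0.0199), and SMX2, the Sm G gene, fell in the rpd3 deletion (-0.56).

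Lists of RNA turnover genes differed from the splicing genes in their counts. Of 16 genes of the exosome and its helpers, which trim and degrade RNA, 10 were higher in the rpd3 deletion and 1 lower, with a median strain difference of 0.68. Over all genes 24.8% were higher and 21.0% lower, with a median of 0.02. In wild type 14 of the 16 fell, where 36.3% of all genes fell. Of 20 genes of messenger RNA deadenylation, decapping and decay, 2 were higher and 9 lower, with a median of -0.25. These are counts and medians of lists, and no difference between lists was tested.

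The direction balance depended on where 0 was set. HIS3, LEU2, MET17 and URA3 are wholly or partly deleted in BY4741, and their median was -0.09, -0.08 and -0.12 on the rpd3 deletion arrays and 0.25, 0.12 and 0.06 on the wild-type arrays. With each array centred on them, the median strain difference of all genes moved up by 0.24 (that in wild type moved by -0.14). Of the 49 genes, 28 were then higher in the rpd3 deletion and 2 lower, where 38.4% of all genes were higher and 9.77% lower. The share of higher genes among all calls was then 79.7%, against 54.2%. In wild type 0 of the 49 then rose and 26 fell, where 21.7% of all genes rose and 44.6% fell. The share of risers among all calls was 32.8%, against 45.0%. RPD3 itself gave -0.11, -0.03 and -0.08 on the rpd3 deletion arrays, where both channels lack its RNA, and 0.19, 0.20 and 0.26 in wild type. RNA came from whole cultures, so less RNA per cell cannot be told apart from fewer cells with that RNA.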

How the data were processed

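Log2 ratios of 2 channels per spot were deposited by the authors as a table of the whole series; base 2 was assumed, because the size of the values allows it and it is what limma writes, the tool that the submitters' processing notes list (no version). How background was corrected and ratios were normalized, and which channel was divided by which, were not given in the sources used here. Raw signals from the scanner were not analysed here, no dim spots could be left out, and the number of arrays limits the precision. The table held 45220 spots, 10 without a value. GEO's platform annotation named 28532 spots with 1 gene symbol and 0 with several, and the other 16688 are unnamed here. RefSeq's yeast gene table (assembly R64) gave newer names for 125 symbols and held 4065 of the 4073 genes.

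Spots were averaged per gene and array. limma 3.58.1 in R 4.3.3 fitted a mean per strain to all 6 arrays, with eBayes (4 residual and 3.37 prior degrees of freedom) and Benjamini-Hochberg adjustment over 4073 genes. For arrays of the same replicate number, deviations from the strain means correlated at -0.22, 0.21 and 0.42 for numbers 1 to 3, across genes. The deviations of a strain sum to 0, so these correlations depend on each other. They cannot settle whether the replicate numbers pair the arrays. On simulated data for the strain difference (4073 genes, 200 changed, 5 runs), 38.5%, 80.3% and 97.6% of genes changed by 0.5, 1 and 2 on the log2 scale were recovered, and 5.02% of calls were false. The simulated noise was normal and independent between genes and arrays. Far fewer genes were changed there than the 45.8% called in the data, so these rates need not hold for the data.

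The members and lists were chosen with earlier results of these data known. Any gene of the rule may be named. Values on every array were set out for the 15 members with the largest called differences and the highest and lowest of each strain, and for further members where the spread matters. From the other splicing genes the 3 highest and 3 lowest differences are named. Promoter motifs planned for the largest differences were not searched, as no sequence table was used here. Alternatives were the median of the spots, centring on all genes or on 4 deleted genes, scaling, quantile normalization, leaving out the 10% of genes with the largest spread between spots, the replicate number as a block, separate fits per strain, and leaving out each array.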

Additional observations from a re-analysis of the deposited data

Results flagged for a closer look

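The heat ratio differed between the strains, by the limma test of the difference itself, for the genes below. Values are log2 strain differences, rpd3 deletion minus wild type. The arrays of the strains did not overlap for any of the 17 genes of the symbol rule given first, by the same values that gave the calls. The higher ones in the rpd3 deletion were SLU7 and PRP3 (both 1.71), PRP43 (1.68), CUS2 (1.35), PRP46 (1.14), SMB1 (0.84), PRP16 (0.72), PRP2 (0.66), LSM3 (0.53), PRP28 (0.52), PRP21 (0.44), LSM8 and CUS1 (both 0.39) and ISY1 (0.29). The lower ones were LSM5 (-1.02), LSM6 (-0.71) and PRP38 (-0.38). Among the other splicing genes named here, SYF2 (0.98), CWC24 (0.93) and CWC22 (0.87) were higher and CBC2 (-0.74) was lower.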

How the results depend on the processing

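Of the 17 called strain differences, 11 passed the threshold under every alternative in which the gene was tested: CUS2, LSM5, LSM6, PRP2, PRP3, PRP16, PRP28, PRP43, PRP46, SLU7 and SMB1. Of 24 calls in the rpd3 deletion 15 did so, and of 26 in wild type 12, and no called gene changed its sign. Uncalled values that stayed uncalled changed sign in 83 of 1027 cases. Centring on the deleted genes moved the median of the 49 genes to 0.14 in the rpd3 deletion and -0.25 in wild type. For the difference that median was 0.43, with 28 higher genes, where 38.4% of all genes were higher. In wild type 0 of the 49 rose, where 21.7% of all genes did. The median of the spots moved the median in the rpd3 deletion to 0.12. Leaving out genes with a large spread between spots, which kept 41 of the 49 genes, gave 3 risers and a median of -0.21 in wild type. Quantile normalization gave 5 lower genes for the difference, where 26.7% of all genes were lower, against 21.0% in the main fit.

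Without 1 array, the counts ran from 8 to 15 risers and 7 to 10 falls in the rpd3 deletion, 1 to 8 and 13 to 21 in wild type, and 9 to 17 higher and 2 to 4 lower genes for the difference; without deletion array 1 or wild-type array 2 there were 9 higher. The medians ran from 0.05 to 0.09, from -0.15 to -0.11 and from 0.15 to 0.24. With the replicate number as a block, 16 genes were higher and 4 lower, and not every array correlated best with its own number. Leaving YME2, and YME2 with LSM1, out of the members, chosen after the data were seen, gave 14 higher and 3 lower genes in both cases. The cause of these changes was not tested. Shares of all genes were not counted for fits without an array, without noisy genes or with the block.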
